A study of Mus musculus with 12 samples.

Results

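Muscle stem cells (MuSCs) cultured under compression (2+3d-C) were compared with MuSCs lysed as they were isolated (F), to find which transcripts differed from those of the isolated cells after compression. The comparison took in 6 of the 12 libraries of the series, all those labelled with either condition, namely replicates 4, 5 and 10 of 2+3d-C and replicates 1, 4 and 5 of F. All 55335 genes of the count table were considered, and the 22635 with enough reads were tested. All 12 libraries came from MuSCs of Pax7-ZsGreen mice, whose fluorescent ZsGreen protein is driven by Pax7 regulatory sequence, sorted by flow cytometry from hindlimb muscle. The mice were 3 to 6 months old. F cells were sorted straight into TRIzol and had 0 days of culture. 2+3d-C cells were grown for 2 days on plastic coated with Matrigel and fibronectin, in a medium with horse and fetal bovine serum, chicken embryo extract and FGF, and then for 3 days under a silicone (PDMS) device whose pillars left them a height of about 4 µm. Cells kept uncompressed for 5 days (5d-U) or 2 days (2d-U), with 3 libraries each, are given beside them where their values place a gene. Compression was thus never applied to cells that had not been cultured first, and the effects of culture and of compression cannot be told apart in 2+3d-C against F. Nothing in the labels says which libraries share mice or a sort, so the p-values below measure the spread between these libraries, part of which may be technical.

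MuSCs lie between the myofiber and its basement membrane and are mostly quiescent in uninjured muscle. The transcription factors Pax7 and Myf5 mark them, MyoD (Myod1) accumulates as they become activated, and myogenin (Myog) appears when their progeny leave the cell cycle to differentiate. Isolation of the cells from muscle is itself known to raise early response genes such as Fos and Egr1, so F cells are a reference for sorted cells and not for undisturbed cells in muscle.

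The F libraries held 24577250 to 32782757 reads on genes, against 62424851, 12540745 and 23495260 in replicates 4, 5 and 10 of 2+3d-C. Levels are given as RPKM, reads scaled for exon length and for library size, the latter by the TMM method. F replicates 4 and 5 stood apart from the other 4 libraries compared. They held 5.03 and 7.13 reads per kilobase on olfactory and other receptor, defensin and keratin-associated gene families that muscle does not use, against 0.22 in F replicate 1 and 0.0279 to 0.186 in 2+3d-C, and reads were found on 44817 and 47398 genes in them, against 15365 to 20724 in the other 4. Replicates 1 and 6 of 5d-U, whose levels are given beside the comparison, held 3.81 and 0.635 such reads per kilobase. The source of these reads is not given in the sources used here. The 20 MuSC markers all passed the filter on low counts, and together made up 4530 to 9910 CPM (reads scaled for library size only) in F and 20400 to 20900 in 2+3d-C. Endothelial markers summed to 1890 to 3260 CPM in F and 478 to 540 in 2+3d-C, and fibroadipogenic markers to 5170, 32900 and 26000 CPM in F replicates 1, 4 and 5 and 2540 to 4450 in 2+3d-C. Immune markers summed to 853 to 2960 CPM in F and to 22.1 to 276 in 2+3d-C. The sum of smooth muscle and pericyte markers went the other way, with 1360 to 1960 CPM in F and 2560 to 2800 in 2+3d-C. That sum includes Des, also a MuSC marker, with a mean of 639 CPM in F and 2020 in 2+3d-C. The median log2 fold change of the members of this list was -1.73, a fall. Erythroid and myofiber sums overlapped. The part these differences in make-up played in the results below was not tested. In such bulk libraries fewer cells of a type and less RNA per cell cannot be told apart.

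The quasi-likelihood test of edgeR, with Benjamini-Hochberg adjustment over every tested gene and a threshold of 0.05, called 438 genes (1.94%) higher in 2+3d-C and 1011 (4.47%) lower. All calls below are of this test unless another is named. Scaled by library size without TMM, the same test gave 145 and 1209, and DESeq2 gave 887 and 4428, so the share of higher genes among the calls was 30.2%, 10.7% and 16.7%. The scaling without TMM moved the median log2 fold change of all tested genes from -0.76 to -1.24. Of the 1011 lower genes, 662 had at most 3 reads in every 2+3d-C library. For 82 of the 1011, at least 50% of the reads in F replicates 4 and 5 would be expected from the density on the silent families. The counts rested on single F libraries. Without F replicate 4 they were 26 and 222, without replicate 5 they were 40 and 265, and without replicate 1 they were 1185 and 8878. Without replicate 5 of 2+3d-C they were 160 and 490. Under all 10 other settings and whichever of the 6 libraries was left out, 14 genes were called higher and 106 lower every time. These are called stable below, a set defined after the data were seen.

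**Figure D1:**
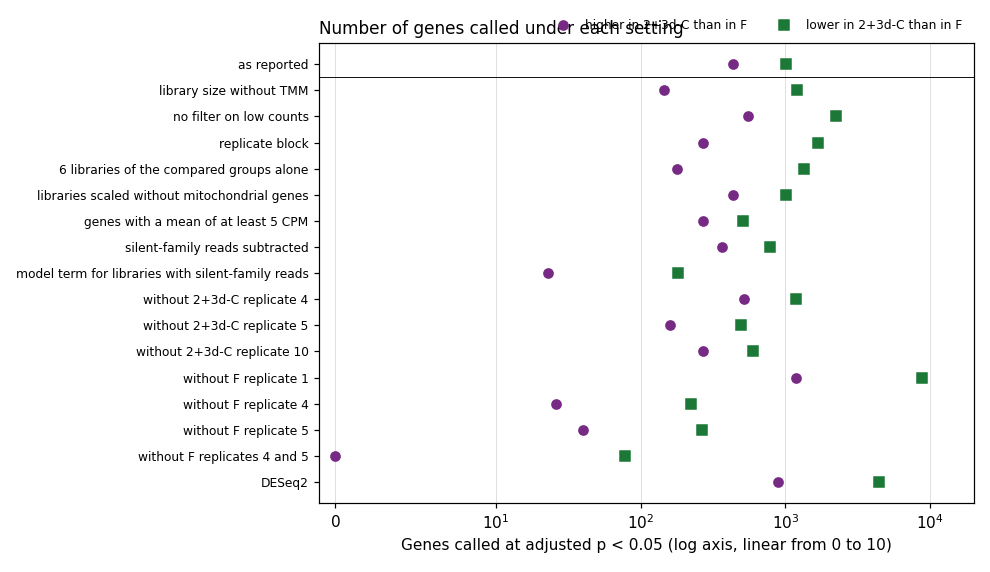
Number of genes called at an adjusted p-value under 0.05 in 2+3d-C against F (horizontal log axis, linear from 0 to 10) under each setting (vertical axis), with circles for genes higher and squares for genes lower in 2+3d-C. Higher genes ran from 0 without F replicates 4 and 5 to 1185 without F replicate 1.

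Myod1, Pax7, Spry1 and Des were the MuSC markers called against F, all higher in 2+3d-C. Of 20 MuSC markers, 4 were higher, 0 were lower, and 16 did not pass, around a median log2 fold change of 1.38. All tested genes had a median of -0.76, and those with a mean of at least 5 CPM one of 0.19. In 10 of the 20 the lowest 2+3d-C library exceeded the highest F library, and in 1 the reverse held. The share of all tested genes without such overlap was not worked out. Here and for the lists below, counts of members without overlap therefore have no background to be set against. Against 5d-U, a comparison that shares the 2+3d-C libraries and in which 9.14% of tested genes were higher and 13.4% lower, 13 were higher and 0 lower. In 5d-U against F, where 11.6% of genes were higher and 8.9% lower, 0 were higher and 11 lower (edgeR, as above).

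Pax7 (ENSMUSG00000028736.13; mm10 chr4:139737062-139833528), the transcription factor that defines these cells, was at 3.68, 1.52 and 2.32 RPKM in F replicates 1, 4 and 5 and at 14.4, 15 and 10.3 in replicates 4, 5 and 10 of 2+3d-C. All 3 compressed libraries were thus well above all 3 isolated ones, with a log2 fold change of 2.40 (standard error 0.484, adjusted p = 0.0151). The call was lost without F replicate 4 (adjusted p = 0.0784) or 5 (0.0676). Myod1 (ENSMUSG00000009471.4; chr7:46376474-46379099), the activation factor, was at 596, 297 and 573 RPKM in F and at 2770, 4540 and 2230 in 2+3d-C. Here too the groups did not overlap, and the log2 fold change of 2.70 (standard error 0.45, adjusted p = 0.00559) passed whichever library was left out (2.37 to 2.91), but not with a model term for the libraries with silent-family reads (adjusted p = 0.0507). Its mean of 942 ± 336 RPKM (SD, n = 3) in 5d-U lay between the other 2 groups. The transcripts of the stem cell factor and of the activation factor were therefore both above their level in F.

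Spry1 (chr3:37639947-37644598), an inhibitor of growth factor signalling needed for MuSC quiescence, was at 116, 57.4 and 70.9 RPKM in F, at 310, 277 and 216 in 2+3d-C and at 5.76 ± 1.86 (SD, n = 3) in 5d-U. Compressed cells lay above isolated cells by a log2 fold change of 1.72 (standard error 0.394, adjusted p = 0.0254), while uncompressed cells lay far below both. Des, the intermediate filament desmin, was at 238, 124 and 148 RPKM in F and at 544, 561 and 508 in 2+3d-C (1.66, adjusted p = 0.029), and 24.4% of the Spry1 exon length and 5.86% of that of Des overlaps another gene, whose reads are not separable as strand was not used. Without F replicate 4 or 5 neither passed (Spry1 0.115 and 0.0979, Des 0.123 and 0.105), nor did Des without 2+3d-C replicate 5 (0.0546) or 10 (0.0589). Calcr, the calcitonin receptor that holds MuSCs in quiescence, was at 21.2, 0.886 and 3.76 RPKM in F and 20, 7.34 and 11.5 in 2+3d-C, so its groups overlapped (adjusted p = 0.768). Vcam1 (1.28, adjusted p = 0.0751), Sdc4 (1.41, 0.0658), Cdh15 (1.76, 0.0629) and Myf5 (1.83, 0.0519) did not pass. Neither did Tenm4 (2.37, adjusted p = 0.104), Chrdl2 (1.86, 0.216), Fgfr4 (1.596, 0.0978), Heyl (1.35, 0.139), Megf10 (0.87, 0.416), Chodl (0.73, 0.571), Itga7 (0.71, 0.382), Dag1 (0.33, 0.722), Cxcr4 (-0.06, 0.97) or Sdc3 (-1.48, 0.121). Cd34, at 47.2 to 65.8 RPKM in F and 20.9 to 32.8 in 2+3d-C, had the one level of the list for which every F library was above every 2+3d-C library (-1.05, adjusted p = 0.459). The study's own panel of 15 quiescence genes drew on earlier work but shows only genes that passed its test in these libraries. It is therefore not independent evidence. The panel held 2 higher members, Pax7 and Spry1, and 0 lower ones.

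**Figure D2:**
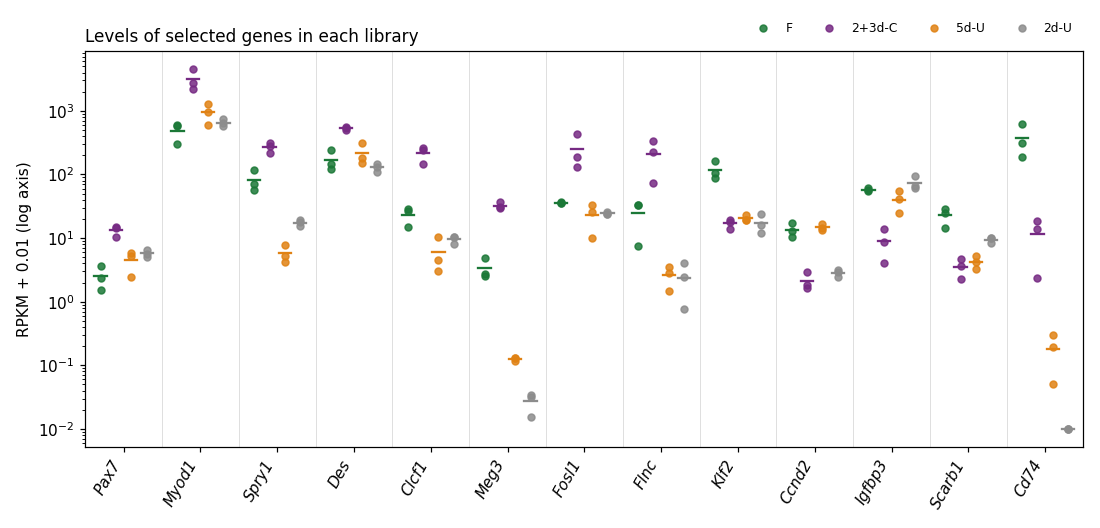
RPKM plus 0.01 (vertical log axis) of 13 genes (horizontal axis) in each of the 12 libraries, with a dot per library, a bar at the mean of each group of 3, and a colour per group. The 2+3d-C dots lie above all F dots for the 8 genes from Pax7 to Flnc and below them for the 5 from Klf2 to Cd74.

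Of 21 genes of myogenic commitment and fusion, Myod1 was higher and Myog, Myh3, Tnnt2 and Mef2c lower. Myog (chr1:134289989-134292548), the differentiation factor, was at 0.889, 230 and 3.35 RPKM in F and at 0.0125, 0 and 0 in 2+3d-C. It was at least 632-fold lower in 2+3d-C, taking 3 reads per library as the limit of detection, but this bound rests on F replicate 4, without which the adjusted p was 0.108, and the call was also lost without replicate 4 (0.054), 5 (0.068) or 10 (0.05) of 2+3d-C. The embryonic myosin Myh3 had the same shape, with 0.00686, 6.56 and 0.413 RPKM in F and 0 in all 3 compressed libraries, and Tnnt2, a troponin of embryonic and cardiac muscle, with 0.0321, 5.78 and 0.42 RPKM in F, overlapped 2+3d-C in its lowest F library. Without F replicate 4 the adjusted p was 0.125 for Myh3 and 0.213 for Tnnt2, without replicate 5 it was 0.0662 and 0.0588, and both were lost without replicate 5 (0.0742 and 0.0913) or 10 (0.0578 and 0.0667) of 2+3d-C, Myh3 also without replicate 4 (0.0617). F replicates 4 and 5 also held 3800 and 2510 CPM of the mature myofiber genes on the list, against 125 in F replicate 1 and 178 to 341 in 2+3d-C. Of 17 of these 0 were higher and 1 lower, the slow myosin Myh7 (0.231, 0.532 and 0.657 RPKM in F and 0, 0.014 and 0 in 2+3d-C), lost without F replicate 4 (0.126) or 5 (0.125) or 2+3d-C replicate 4 (0.0778) or 10 (0.0951). Mef2c, a transcription factor that also works outside muscle, was the one of the 4 lower genes with like levels in all F libraries, 5.63, 3.65 and 3.56 RPKM, against 0.422, 0.138 and 0.00581 in 2+3d-C (-4.48, adjusted p = 0.0331, and 0.0826 without F replicate 4, 0.0781 without F replicate 5 and 0.0828 without 2+3d-C replicate 5). Myf6 (-0.17, adjusted p = 0.945) did not pass. With 5d-U as the reference, 3 of these genes rose and 9 fell.

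The 14 stable genes higher in 2+3d-C, with log2 fold changes between 2.12 and 3.46, were Nop56, Rcl1, Ppan, Srm, Spout1, Wdr55, Vgll2, Rrp9, Fosl1, Cd3eap, Clcf1, Meg3, Iqsec3 and Rem1. As background, Nop56, Rcl1, Ppan, Rrp9 and Wdr55 act in the maturation of ribosomal RNA, Cd3eap is a subunit of RNA polymerase I, Srm makes spermidine, and Vgll2 is a muscle cofactor of TEAD transcription factors. Clcf1 (ENSMUSG00000040663.9; chr19:4214238-4223490), a cytokine of the interleukin-6 family, was at 26.4, 15.1 and 28.8 RPKM in F and at 259, 246 and 147 in 2+3d-C. That was a log2 fold change of 3.22 (standard error 0.502, adjusted p = 0.00376), with no overlap between the groups, and 5d-U, at 5.96 ± 3.85 RPKM, lay on the other side of F. Meg3 (ENSMUSG00000021268.17; chr12:109541001-109571726), an imprinted long noncoding RNA, was at 4.77, 2.71 and 2.56 RPKM in F and at 29.7, 37.1 and 30.5 in 2+3d-C (3.28, standard error 0.489, adjusted p = 0.0028). Its level in 5d-U was 0.116 ± 0.00759 RPKM, again on the other side of F. Rrp9 was at 33.6, 32.5 and 42 RPKM in F and at 165, 383 and 201 in 2+3d-C (2.79, standard error 0.396, adjusted p = 0.00193), and Nop56 at 82.1, 82.8 and 87.4 and at 292, 486 and 319 (2.12, adjusted p = 0.00587). For these 2 the F libraries were close to each other and 5d-U was between the groups, at 75.4 ± 5.08 and 164 ± 31.9 RPKM. Rem1, a small GTPase, went from 6.41 to 7.54 RPKM in F to 42.4 to 129 in 2+3d-C.

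By the size of the rise, among genes with at least 10 CPM in 2+3d-C and no overlap of the libraries, the 12 leading genes were Sdsl, Cyp26a1, Rem1, Iqsec3, Arl4d, Bdkrb1, Meg3, Clcf1, Ntn5, Flnc, Chac1 and Cd3eap. Cyp26a1 (chr19:37697798-37701536), which breaks down retinoic acid, was at 14.8, 5.55 and 4.95 RPKM in F, at 66.1, 226 and 62.8 in 2+3d-C and at 0.0783 ± 0.084 in 5d-U. The log2 fold change against F was 3.81 (standard error 0.748, adjusted p = 0.0166), and that against 5d-U was 10.5 (adjusted p = 3.62e-05). Arl4d, a small GTPase, was at 211, 61.4 and 172 RPKM in F and at 1090, 2540 and 830 in 2+3d-C, and Bdkrb1, a bradykinin receptor induced by inflammation, at 63.8, 14.1 and 20.9 and at 207, 654 and 129. In both the lowest compressed library was above the highest isolated one, and F replicate 4 held the lowest value. Their calls, like those of Cyp26a1, Sdsl, Ntn5, Flnc and Chac1, were lost without F replicate 4 (adjusted p = 0.0629 for Arl4d, 0.087 for Bdkrb1, 0.0723 for Cyp26a1, 0.117 for Sdsl, 0.138 for Ntn5, 0.096 for Flnc and 0.107 for Chac1) and without F replicate 5 (0.0555, 0.0873, 0.0691, 0.0803, 0.112, 0.0724 and 0.0936 in the same order). Without replicate 5 of 2+3d-C, Bdkrb1 (0.0622), Sdsl (0.104), Ntn5 (0.0909) and Chac1 (0.0936) were lost too. Of Ntn5 exon length, 23.4% overlaps another gene, and the counts do not use strand.

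Early response genes, which a cell transcribes within minutes of a stimulus, mostly did not pass against F. Of 28 members, 3 were higher (Fosl1, Myc and Ier2) and 1 lower (Klf2), around a median of 0.33. Side by side, 25 rose and 0 fell in 2+3d-C against 5d-U, and 0 rose and 26 fell in 5d-U against F, comparisons that share libraries with the main one. The summed level was 19500 to 23300 CPM in F, 22200 to 43100 in 2+3d-C and 1370 to 1760 in 5d-U. The members Fos and Egr1, named after their values were seen show the pattern, with Fos at 658 to 941 RPKM in F, 445 to 739 in 2+3d-C and 3.57 on average in 5d-U, and Egr1 at 774 to 1620, 1200 to 2290 and 7.55. Fosl1 (chr19:5447547-5455946), a partner of Jun in AP-1, was at 36.3, 35.8 and 35.3 RPKM in F and at 191, 439 and 129 in 2+3d-C (2.82, standard error 0.52, adjusted p = 0.00978). The F libraries were almost equal and the compressed ones all above them, but 57.2% of its exon length overlaps another gene, whose reads cannot be separated without strand. Myc, a driver of growth genes, was at 724, 362 and 378 RPKM in F and at 2050, 2760 and 1280 in 2+3d-C (2.06, adjusted p = 0.0328), and Ier2 at 438, 478 and 436 and at 952, 2990 and 807 (1.81, adjusted p = 0.0358). Both were lost without F replicate 4 (0.126 and 0.113), F replicate 5 (0.118 and 0.116) or 2+3d-C replicate 5 (0.081 and 0.137).

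Klf2 (ENSMUSG00000055148.7; chr8:72319033-72321656), a transcription factor induced by fluid flow in endothelium and kept high in resting T cells, went the other way. It was at 89.2, 162 and 105 RPKM in F, at 13.9, 19.3 and 17.8 in 2+3d-C and at 20.7 ± 2.35 in 5d-U. Compressed cells were thus close to uncompressed ones (-0.29, adjusted p = 0.583) and below isolated ones, with a log2 fold change of -2.80 (standard error 0.418, adjusted p = 0.0028), a call that is stable.

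Chemokines and cytokines, NF-kB genes, clock genes and heat shock genes were likewise mostly not called against F. Of 22 chemokines and cytokines 0 were higher and 4 lower (Il1a, Il1b, Cxcl14 and Cxcl12), around a median of -0.98, while 14 were higher and 0 lower than in 5d-U. Il1b, a cytokine made mainly by myeloid cells, was at 27.6, 17.2 and 21.9 RPKM in F and at 1.39, 0.0632 and 0 in 2+3d-C (-5.41, adjusted p = 0.0338), and Il1a, at 3.7 to 7.38 RPKM in F, was at 0 in all 3 compressed libraries, at least 53.3-fold lower. The same libraries differed in immune markers, which summed to 853 to 2960 CPM in F and 22.1 to 276 in 2+3d-C. Cxcl12, the ligand of Cxcr4, was at 15.8, 34.2 and 37.6 RPKM in F and at 5.57, 13.2 and 3.82 in 2+3d-C (-1.96, adjusted p = 0.0358). All 4 calls were lost without F replicate 4 (adjusted p from 0.0594 to 0.132), all 4 without F replicate 5 (0.0598 to 0.12), and 2 each without replicate 4, 5 or 10 of 2+3d-C (0.0502 to 0.109). Of 16 NF-kB subunits and feedback genes, Nfkbib, an inhibitor of NF-kB, was higher (113, 71.9 and 62.6 RPKM in F, 258, 938 and 256 in 2+3d-C, 2.55, adjusted p = 0.0271) and Icam1, an adhesion molecule for leukocytes, lower (216, 537 and 436 RPKM, and 80.9, 74.9 and 40.4, -2.60, adjusted p = 0.0431). Neither passed without F replicate 4 (0.104 and 0.134), F replicate 5 (0.101 and 0.107) or 2+3d-C replicate 5 (0.0893 and 0.0907), nor did Icam1 without 2+3d-C replicate 4 (0.0551) or 10 (0.107). Against 5d-U 13 of these 16 NF-kB genes rose. Of 19 clock genes 0 were called in either direction by edgeR (1 higher and 1 lower at an unadjusted p under 0.05, and 1 and 1 called by DESeq2), and 12 were higher and 1 lower than in 5d-U. Of 19 heat shock genes Hsf1, the factor that switches the others on, was higher, at 12.1, 11 and 10.8 RPKM in F and 45.4, 34.1 and 44.2 in 2+3d-C (1.87, standard error 0.336, adjusted p = 0.00841, and 0.0533 without F replicate 4). Hspa1b, which it induces, was at 1310, 299 and 293 RPKM in F and 205, 126 and 168 in 2+3d-C and did not pass (adjusted p = 0.105).

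Of 53 translation initiation factors 10 were higher and 0 lower (Eif4a1, Eif5b, Eif5a, Eif6, Eif3g, Eif1ad, Eif4a3, Eif2b1, Eif3d and Eif3l), around a median of 0.99, and for 19 the libraries did not overlap, with 2+3d-C above F. That last count has no background over all tested genes. Eif4a1, the helicase that unwinds mRNA for the ribosome, was at 191, 37.1 and 127 RPKM in F and at 463, 1010 and 403 in 2+3d-C (2.40, standard error 0.538, adjusted p = 0.0232). Eif5a, which carries hypusine and helps elongation, was at 624, 633 and 542 RPKM in F and at 1250, 3790 and 1450 in 2+3d-C (1.85, adjusted p = 0.0453). The groups did not overlap, but replicate 5 of 2+3d-C was far above the other 2, and all 10 calls were lost without it (adjusted p from 0.0616 to 0.161), as they were without F replicate 4 (0.0654 to 0.157) or 5 (0.0747 to 0.149), and 8 without replicate 10 of 2+3d-C (0.051 to 0.0771). Of 20 genes of the amino acid response and serine synthesis 5 were higher and 0 lower, namely Atf4, the factor that drives this response, its partner Cebpb, the glutathione-degrading enzyme Chac1, the amino acid transporter subunit Slc3a2, and Shmt1. Atf4 was at 258, 125 and 238 RPKM in F and at 538, 999 and 350 in 2+3d-C (1.604, adjusted p = 0.0492), and Cebpb at 705, 627 and 553 and at 1790, 4950 and 1880 (2.19, adjusted p = 0.0317). In both the compressed libraries all lay above the isolated ones. All 5 were lost without F replicate 4 (0.0938 to 0.18) and all 5 without F replicate 5 (0.087 to 0.119), Atf4, Cebpb, Chac1 and Slc3a2 without replicate 5 of 2+3d-C (0.0936 to 0.159), Atf4 without replicate 4 (0.0553) and Shmt1 without replicate 10 (0.0801).

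Of 85 ribosomal protein genes 3 were higher (Rpl10a, Rpl7l1 and Rpl8) and 1 lower, the muscle paralog Rpl3l, around a median of 0.91, and of 38 proteasome subunits 2 were higher (Psmc4 and Psmc5) and 0 lower (median 1.16). For both lists 5d-U lay higher still. Side by side, 0 ribosomal protein genes rose and 37 fell in 2+3d-C against 5d-U, and 73 were higher and 1 lower in 5d-U than in F. For proteasome subunits these numbers were 1, 14, 30 and 1. All 6 calls were lost without F replicate 4 (0.101 to 0.157), F replicate 5 (0.0815 to 0.154) or replicate 5 of 2+3d-C (0.0641 to 0.173), and Rpl8, Rpl3l and Psmc4 without replicate 10 (0.0504 to 0.0931). Ribosomal protein genes have many processed copies, and reads may have been split or dropped among them. Of 81 nuclear genes of oxidative phosphorylation 0 were higher and 1 lower, Cox6a2, a subunit isoform of muscle and heart (1.65, 18.3 and 13.6 RPKM in F and 0.385, 0.177 and 0 in 2+3d-C, lost without F replicate 4 at 0.148, F replicate 5 at 0.119 and 2+3d-C replicates 5 at 0.113 and 10 at 0.087). Against 5d-U 1 was higher and 67 lower, and 5d-U held 73 higher and 1 lower than F. Of 22 glycolysis and lactate genes Pfkfb3, whose product makes the main activator of phosphofructokinase, was lower, at 18.2, 62.9 and 59.7 RPKM in F and 13, 3.84 and 6.34 in 2+3d-C (-2.60, adjusted p = 0.0227, and 0.0844 without F replicate 4). The call was also lost without F replicate 5 (0.0756) and without replicate 5 (0.06) or 10 (0.0554) of 2+3d-C. Of 10 mitochondrial transcripts 0 were called by edgeR, by DESeq2 or at an unadjusted p under 0.05, and of 18 hypoxia response genes 0 by edgeR (1 higher and 2 lower unadjusted, and 0 and 2 by DESeq2).

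Of the lists, that of mitosis held the most stable calls, 10, and all of them were lower. Of 30 mitosis and kinetochore genes 18 were lower and 0 higher in 2+3d-C than in F, around a median of -3.55, or -3.48 with genes at the limit of detection set to their bound. The summed level of the list overlapped between the groups, at 370, 483 and 207 CPM in F and 151, 345 and 249 in 2+3d-C, and Bub3, which did not pass and is named after its values were seen, held 81.8 CPM of it on average in F and 191 in 2+3d-C. The background was 4.47% lower over all tested genes. In 22 of the 30 the lowest F library exceeded the highest 2+3d-C library, a count without a background over all tested genes. Of the 18, 12 passed with each library left out and 10 under all other settings as well (Cdca8, Aurkb, Nuf2, Bub1, Prc1, Ndc80, Plk1, Mki67, Tpx2 and Cenpf). Without F replicate 4, 6 of the 18 did not pass, and 3 without F replicate 5, 2 without 2+3d-C replicate 4 and 4 without 2+3d-C replicate 5. In 5d-U 29 of the 30 were higher than in F, and all 30 were higher than in 2+3d-C. The letters before the start of these genes are shown for the 3 with the smallest p (Cdca8, Prc1 and Ndc80) and, chosen after their values were seen, for Top2a and Mki67, because promoters of mitotic genes are known for repeated CCAAT boxes, which NF-Y binds, and for a TTTGAA element bound by the DREAM complex, which represses them in resting cells. Each is the 250 bases before the RefSeq start (build GRCm38.p6, the mm10 assembly), 5′ to 3′ on the strand of the gene, with CCAAT or TTTGAA on either strand in capitals: Cdca8 at chr4:124936918-124937167, minus strand, Prc1 at chr7:80294201-80294450, plus strand, Ndc80 at chr17:71526858-71527107, minus strand, Top2a at chr11:99024190-99024439, minus strand and Mki67 at chr7:135716380-135716629, minus strand.
Cdca8: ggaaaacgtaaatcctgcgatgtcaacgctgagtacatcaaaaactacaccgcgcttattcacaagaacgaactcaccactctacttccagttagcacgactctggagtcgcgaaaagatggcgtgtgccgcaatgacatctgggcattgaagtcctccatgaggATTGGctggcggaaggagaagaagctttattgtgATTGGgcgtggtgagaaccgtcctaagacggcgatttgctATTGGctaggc
Prc1: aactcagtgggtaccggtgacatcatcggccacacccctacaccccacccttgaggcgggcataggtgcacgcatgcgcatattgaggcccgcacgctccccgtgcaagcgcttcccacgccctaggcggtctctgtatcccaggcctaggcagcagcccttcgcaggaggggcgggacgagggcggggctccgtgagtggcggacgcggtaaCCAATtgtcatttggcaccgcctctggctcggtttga
Ndc80: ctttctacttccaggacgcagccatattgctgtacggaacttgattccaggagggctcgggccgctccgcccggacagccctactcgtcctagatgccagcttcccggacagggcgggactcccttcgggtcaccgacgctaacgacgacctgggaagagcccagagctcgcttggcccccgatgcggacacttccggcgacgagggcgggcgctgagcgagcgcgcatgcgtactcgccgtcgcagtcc
Top2a: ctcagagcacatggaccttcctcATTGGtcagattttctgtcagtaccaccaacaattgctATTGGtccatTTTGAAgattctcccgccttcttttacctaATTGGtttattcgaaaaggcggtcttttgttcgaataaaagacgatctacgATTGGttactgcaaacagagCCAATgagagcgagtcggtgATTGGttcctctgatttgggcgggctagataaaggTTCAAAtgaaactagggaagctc
Mki67: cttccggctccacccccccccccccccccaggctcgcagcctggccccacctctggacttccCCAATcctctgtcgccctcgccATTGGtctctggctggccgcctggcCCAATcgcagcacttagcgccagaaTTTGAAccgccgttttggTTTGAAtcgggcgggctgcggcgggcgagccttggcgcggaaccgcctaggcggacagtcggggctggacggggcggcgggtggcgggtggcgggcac

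CCAAT stood in 3 places before Cdca8, in 1 before Prc1, in 0 before Ndc80, in 6 before Top2a and in 3 before Mki67, and TTTGAA in 2 each before Top2a and Mki67, with no overlap between matches. Of the 25 mitosis genes with an entry among the RefSeq promoters, 21 (84%) held CCAAT in these 250 bases, against 34.5% of all 27025 promoters, and 8 (32%) held TTTGAA, against 16.3%. Of 23 early response genes with an entry, 8 (34.8%) held CCAAT and 2 (8.7%) TTTGAA, and 0 held the AP-1 letters TGANTCA, which 6.87% of all promoters hold, and 2 (8.7%) the CRE letters TGACGTCA, against 1.62%. A match is a description of the sequence, and no binding was measured.

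Cdca8 (ENSMUSG00000028873.16; chr4:124918465-124939311), borealin of the chromosomal passenger complex, was at 1.12, 2.32 and 0.707 RPKM in F, at 0 in all 3 compressed libraries and at 52 ± 8.76 in 5d-U. It was at least 38.7-fold lower in 2+3d-C than in F (adjusted p = 0.00021). Mki67 (chr7:135689784-135716361), the proliferation marker, was at 0.524, 0.708 and 0.756 RPKM in F, at 0.00372, 0 and 0 in 2+3d-C and at 3.91 ± 0.712 in 5d-U. The isolated cells thus held low but measurable levels, with the compressed ones at or under 2 reads per library, a bound of 36-fold. Aurkb, the kinase of the same complex as Cdca8, was at least 32-fold lower, Prc1, which bundles spindle microtubules, at least 61.8-fold, Ndc80, which ties kinetochores to microtubules, at least 26-fold, and Bub1, a checkpoint kinase, at least 12.6-fold. Of the reads of these genes in F replicates 4 and 5 a share would be expected from the density on silent families. It was 6.96% and 25.5% for Cdca8, 22.8% and 23.8% for Mki67, 22.8% and 35.3% for Bub1 and 13.3% and 40.3% for Ndc80. Over the 10 stable genes of the list it ran from 3.19% (Plk1) to 28% (Cenpf) in replicate 4. In replicate 5 it ran from 12.3% (Tpx2) to 58.2% (Cenpf). These 10 genes kept their call with those reads subtracted and with a term for those libraries in the model. Both settings are part of the definition of a stable gene, so they are no separate check on these genes. Top2a (chr11:98992943-99024189), topoisomerase II of dividing cells, was at 2.19, 2.92 and 1.28 RPKM in F and at 0.615, 0.334 and 0.213 in 2+3d-C (-2.44, standard error 0.487, adjusted p = 0.0145, and 0.063 without F replicate 4). Here all compressed libraries still held reads. The list did not move as one, since 12 of its 30 members did not pass, among them Bub3 (8.89 to 13.2 RPKM in F and 14.9 to 40.4 in 2+3d-C, adjusted p = 0.0885).

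**Figure D3:**
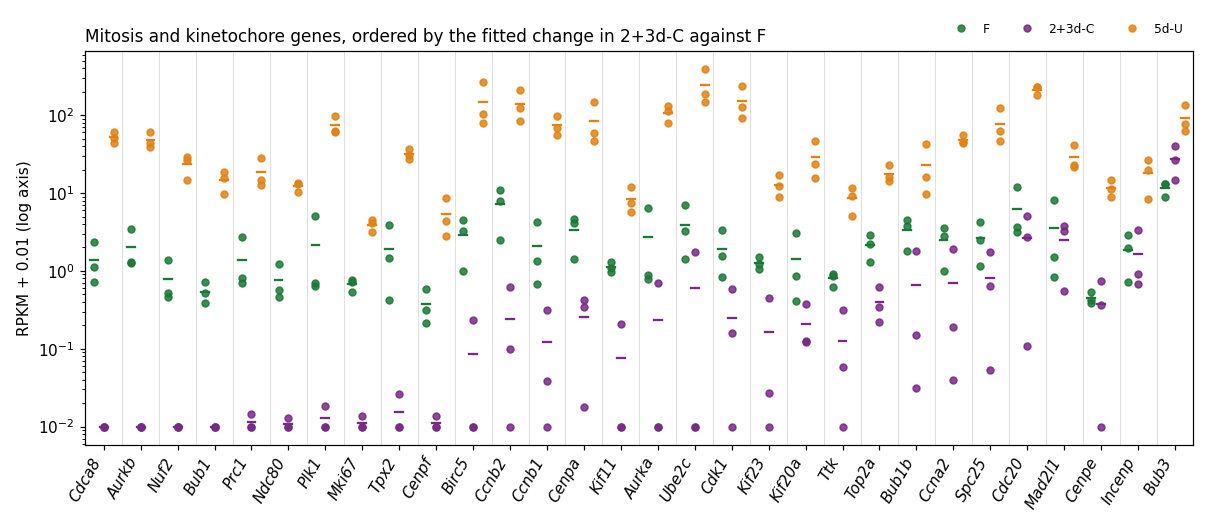
RPKM plus 0.01 (vertical log axis) of the 30 mitosis and kinetochore genes (horizontal axis, in order of the fitted log2 fold change of 2+3d-C against F) in each library of F, 2+3d-C and 5d-U, with a bar at each mean. The 5d-U dots lie above all others for most genes, and 2+3d-C dots at 0.01 are libraries without a read.

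Of 30 DNA replication genes 2 were lower (Mcm10 and Gins3) and 1 higher (Mcm7), around a median of -0.91, although 25 were higher in 5d-U than in F and 25 fell in 2+3d-C against 5d-U. Mcm10, which helps to start replication forks, was at 0.265, 0.78 and 0.499 RPKM in F and at 0 in all 2+3d-C libraries, at least 21.4-fold lower (adjusted p = 0.000544). Mcm7, a subunit of the replicative helicase, was at 7.14, 8.04 and 6.76 RPKM in F and 18.3, 22.4 and 17.3 in 2+3d-C (1.402, adjusted p = 0.0364), a call lost without F replicate 4 (0.116) or 5 (0.129) or any 1 of the 3 compressed libraries (0.0532 to 0.0864). Of 20 CDK inhibitors and G1 cyclins Ccnd2 and Ccne1 were lower and 0 higher. Ccnd2 (ENSMUSG00000000184.12; chr6:127125162-127152193), a D cyclin of the G1 phase, was at 10.2, 17.4 and 12.7 RPKM in F and at 1.64, 1.85 and 2.89 in 2+3d-C (-2.66, standard error 0.397, adjusted p = 0.0028), with 15 ± 1.71 in 5d-U. It was among the stable genes, with every compressed library below every F library. Of 18 p53 target genes Trp53 itself and Aen were higher and Ccng1 lower. Trp53 was at 18.3, 16.6 and 28.8 RPKM in F and 68, 117 and 84.9 in 2+3d-C (2.08, adjusted p = 0.0181, and 0.0832 without F replicate 4), and at 86 RPKM on average in 5d-U. Aen was lost without F replicate 4 (0.0545), and Ccng1 and Ccne1 without F replicate 4 (0.137 and 0.174), F replicate 5 (0.0687 and 0.0737) or 2+3d-C replicate 5 (0.0802 and 0.0904), Ccne1 also without replicate 10 (0.0898).

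Few genes of cell mechanics were called, with Ccn1, Flnc and Zyx higher and Birc5 and Actn1 lower in 2+3d-C. Over all tested genes 1.94% were higher and 4.47% lower. The median was -0.74 for YAP target genes and 0.11 for actin, filamin and contractile genes. All tested genes had a median of -0.76, and those with a mean of at least 5 CPM one of 0.19. Of 16 YAP target genes Ccn1, a secreted matrix protein, was higher and Birc5, also a mitotic gene, lower. Ccn1 was at 991, 695 and 764 RPKM in F, at 2760, 5300 and 1620 in 2+3d-C and at 364 on average in 5d-U (1.98, standard error 0.537, adjusted p = 0.0436 against F). Of 29 actin, filamin and contractile genes Flnc and Zyx were higher and Actn1 lower. Flnc (chr6:29433256-29461883), filamin C, which crosslinks actin in muscle, was at 32.5, 7.44 and 33.1 RPKM in F, at 330, 72.1 and 227 in 2+3d-C and at 2.61 ± 1.06 in 5d-U (3.11, adjusted p = 0.0284). Zyx, the focal adhesion protein zyxin, was at 32.2, 43.8 and 38.9 RPKM in F and at 99.6, 103 and 92.3 in 2+3d-C (1.36, standard error 0.33, adjusted p = 0.0303), and Actn1, alpha-actinin, at 4.68, 7.58 and 6.55 and at 1.81, 0.676 and 2.62 (-1.87, adjusted p = 0.0313). For each of these 4 genes the F and 2+3d-C libraries did not overlap. All 4 calls were lost without F replicate 4 (0.145 for Ccn1, 0.0915 for Zyx, 0.113 for Actn1, 0.096 for Flnc) and without F replicate 5 (0.133, 0.101, 0.0889 and 0.0724), and those of Ccn1 (0.136), Zyx (0.0597) and Actn1 (0.0666) without replicate 5 of 2+3d-C. Without replicate 4 of 2+3d-C Zyx (0.053) and Actn1 (0.0517) were lost as well, and without replicate 10 Zyx (0.0737).

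Collagens, laminins and integrins, and matrix proteases and their inhibitors were lower where they were called, which most were not. Over all tested genes 1.94% were higher and 4.47% lower. Of 44 collagens 0 were higher and 6 lower (Col1a1, Col1a2, Col8a2, Col14a1, Col28a1 and Col9a2), around a median of -2.37, or -2.21 with genes at the limit of detection at their bound. Col1a1, the main fibrillar collagen, was at 19.1, 307 and 306 RPKM in F and at 10, 0.845 and 10.6 in 2+3d-C (-4.88, adjusted p = 0.0352, and 0.0952 without F replicate 4, 0.0912 without F replicate 5, 0.0763 without 2+3d-C replicate 5 and 0.0504 without replicate 10). Of the 6, Col1a2, Col8a2 and Col14a1 passed whichever library was left out, and Col28a1 and Col9a2 were lost without F replicate 4 (0.083 and 0.1) or 5 (0.0879 and 0.0912) or 2+3d-C replicate 5 (0.0584 and 0.0602), Col9a2 also without replicate 10 (0.05). The high values of Col1a1 sat in the 2 F libraries that also held most fibroadipogenic and tendon transcripts, and their part in the result was not tested. Col8a2, at 0.888, 15.3 and 16.5 RPKM in F, was at 0 in all compressed libraries, at least 264-fold lower. Of 29 laminins and integrins 0 were higher and 3 lower (Lamb1, Itga4 and Itgb6, median -1.77). Of 26 matrix proteases and inhibitors 0 were higher and 2 lower, Mmp16 and Mmp13 (median -1.78, or -1.54 at the bound). These 5 were lost without F replicate 4 (0.0597 to 0.146) and without F replicate 5 (0.0665 to 0.125), and 4 of them without 2+3d-C replicate 5 (0.0565 to 0.115), Lamb1 (0.057) and Mmp13 (0.103) without replicate 10 and Mmp13 without replicate 4 (0.0845). Of 19 IGF and imprinted growth genes, Meg3 was higher and Igfbp3 and Igfbp6 lower. Igfbp3 (ENSMUSG00000020427.11; chr11:7206086-7213923), which binds IGFs outside the cell, was at 61.7, 54.3 and 56.3 RPKM in F and at 8.77, 14.1 and 4.11 in 2+3d-C (-2.68, standard error 0.479, adjusted p = 0.00819). F libraries were nearly equal, 5d-U was at 40.2 ± 14.5 RPKM, and the call is stable. Igfbp6 was lost without F replicate 4 (0.132) or 5 (0.126) or 2+3d-C replicate 4 (0.0827) or 10 (0.0989).

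By the size of the fall, the 12 leading genes among those with at least 10 CPM in F and no overlap of the libraries (Ighm, Pcsk6, Cd248, Ptprc, Cytip, Col8a2, Dpp4, Jchain, Rgs1, Tmem119, Mmrn1 and F13a1) had 0 reads in all 3 2+3d-C libraries, so that only bounds can be given, from 191-fold for F13a1 to 503-fold for Ighm. Ighm, the heavy chain of immunoglobulin M in B cells, was at 127, 13.5 and 7.5 RPKM in F, with its high value in replicate 1. Ptprc (CD45), carried by all leukocytes, was at 7.63, 1.54 and 1.7 RPKM, and Cd248 and Dpp4, of fibroadipogenic cells, at 0.542, 46 and 33.5 and at 3.24, 8.75 and 9.35. F replicate 1 thus held more of the immune transcripts and replicates 4 and 5 more of the fibroblast ones. Of 18 immune markers 5 were lower, among them Ptprc, Adgre1, Cd3e and Cd79a, and 0 higher, of 15 fibroadipogenic markers 6 (Cd248, Dpp4, Pi16, Col1a1, Postn and Gsn) and 0, of 7 tendon markers 5 (Kera, Fmod, Comp, Tnmd and Thbs4) and 0, and of 16 endothelial markers 2 (Pecam1 and Flt1) and 0. The medians were -5.90 (-4.27 at the bound), -4.02, -4.65 and -2.38. Without F replicate 4, 15 of these 18 calls were lost, 14 without F replicate 5 and 11 without 2+3d-C replicate 5, with Cd248 (0.057 and 0.0514) and Pecam1 (0.0571 and 0.0529) among those of the F libraries, and Ptprc, Dpp4 and Kera passed whichever library was left out. Tendon markers summed to 784, 7730 and 8540 CPM in F and to 140 to 299 in 2+3d-C. Of 12 smooth muscle and pericyte markers Rgs5 was lower and Des, which MuSCs share, higher, and Rgs5 was lost without F replicate 5 (0.0665) or 2+3d-C replicate 5 (0.0616) or 10 (0.0672). Of 12 glial and 7 erythroid markers 0 were called by edgeR (1 higher and 3 lower, and 0 and 1, at an unadjusted p under 0.05, and 0 and 2, and 0 and 1, by DESeq2), with erythroid sums of 163 to 688 CPM in F, 27.3 to 317 in 2+3d-C and at most 1.13 in 5d-U. These markers, Pecam1 among them, were not all at 0 in 2+3d-C, where Pecam1 was at 10.2, 2.27 and 5.03 RPKM against 62.9, 84.3 and 77.6 in F and 0.276 on average in 5d-U. Endothelial sums were 12.7 to 66.1 CPM in 5d-U and fibroadipogenic sums 163 to 221, both below 2+3d-C. Immune sums (6.76 to 177 CPM in 5d-U) and tendon sums (177 to 997) overlapped with 2+3d-C. The part of these differences in the comparisons with 5d-U was not tested.

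**Figure D4:**
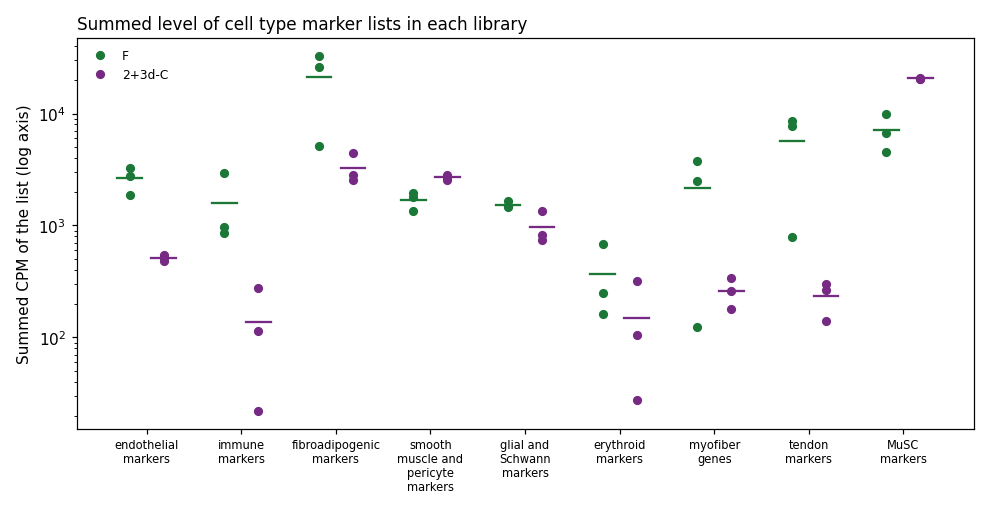
Summed CPM (vertical log axis) of each marker list (horizontal axis) in the 3 F and the 3 2+3d-C libraries, with a dot per library and a bar at the mean. Endothelial, immune and fibroadipogenic sums of all F libraries lie above those of all 2+3d-C libraries, and the MuSC marker sums lie below.

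Of 18 antigen presentation genes 0 were higher and 4 lower, all of class II, which antigen-presenting cells carry (H2-Aa, H2-Ab1, H2-Eb1 and the invariant chain Cd74). Cd74 was at 624, 314 and 190 RPKM in F, at 2.36, 13.7 and 18.8 in 2+3d-C and on average at 0.171 in 5d-U and 0 in 2d-U (-5.02 against F, standard error 0.832, adjusted p = 0.00762). H2-Aa was at 80.2, 28 and 22.3 RPKM in F and at 0.33, 0.0635 and 1.57 in 2+3d-C (-6.02, adjusted p = 0.0153). H2-Ab1 was lost without F replicate 4 (0.0612) and H2-Eb1 without F replicate 4 (0.0556), F replicate 5 (0.0555) or 2+3d-C replicate 5 (0.0526). Cd74 and H2-Aa are stable, and both were higher in the F library with the most immune markers. Of 15 genes of lipoprotein and cholesterol transport 2 were lower and 0 higher. Scarb1 (ENSMUSG00000037936.15; chr5:125277087-125341094), the receptor that takes up cholesterol from HDL, was at 14.4, 29.1 and 24.8 RPKM in F and at 4.71, 3.59 and 2.29 in 2+3d-C (-2.69, standard error 0.429, adjusted p = 0.00418), close to 5d-U (4.2 ± 0.978 RPKM). It is a stable gene, while Fabp5 (-2.72, adjusted p = 0.0358) was lost without F replicate 4 (0.0656) or 5 (0.0631) and without replicate 4 (0.0739) or 10 (0.0867) of 2+3d-C. Of 28 sterol and fatty acid synthesis genes only Mvk and of 25 lysosomal genes only Ctss was called, both lower, and without F replicate 4 neither passed (0.0953 and 0.106), nor without F replicate 5 (0.0688 and 0.097). Mvk was also lost without 2+3d-C replicate 10 (0.0509), and Ctss without replicate 4 (0.0655) or 5 (0.107).

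In signalling pathways few members were called. Of 23 Notch receptors, ligands and targets Dtx3, a ubiquitin ligase of the pathway, was higher (13.9, 31.8 and 22.8 RPKM in F and 57.1, 84.2 and 64.1 in 2+3d-C, 1.58, adjusted p = 0.0326) and 0 were lower. At an unadjusted p under 0.05 edgeR gave 2 higher and 5 lower, DESeq2 called 2 higher and 5 lower, and the libraries did not overlap for 2 with 2+3d-C above F and 8 with F above 2+3d-C. Those last counts have no background over all tested genes. The call of Dtx3 was lost without F replicate 4 (0.0643) or 5 (0.111) and without replicate 5 (0.0795) or 10 (0.0609) of 2+3d-C. The target Heyl, at 44, 22.4 and 41.4 RPKM in F, 76.7, 34.9 and 164 in 2+3d-C and 0.265 on average in 5d-U, overlapped between the first 2 groups (adjusted p = 0.139), and the receptor Notch3 (2.71, adjusted p = 0.0528) did not pass, nor did the ligand Dll1, at 6.23, 10.8 and 14.8 RPKM in F and 1.7, 2.03 and 0.0324 in 2+3d-C (-3.09, adjusted p = 0.0581). Of 22 Wnt genes Wnt10b was lower (at least 11.7-fold, adjusted p = 0.0338, 0.0685 to 0.114 without F replicate 4 or 5 or any 1 of the 3 compressed libraries), and of 26 BMP and TGF-beta genes 0 were called by edgeR (2 higher and 3 lower at an unadjusted p under 0.05, and 0 and 3 called by DESeq2). Among the stable lower genes of no list above, named after their values were seen, were Gja1, the gap junction protein connexin 43, at 111, 118 and 139 RPKM in F and 29.4, 10.6 and 18.3 in 2+3d-C (-2.66, standard error 0.494, adjusted p = 0.0102), Kitl, the ligand of the receptor Kit, at 21.5, 16 and 18 and 2.84, 0.877 and 1.94 (-3.29, adjusted p = 0.0079), and Abcg2, an efflux transporter used to sort side population cells, at 17.5, 13.2 and 10.8 and 1.58, 3.06 and 1.45 (-2.77, adjusted p = 0.00552). In 5d-U these were at 12.3, 0.446 and 7.71 RPKM on average.

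**Figure D5:**
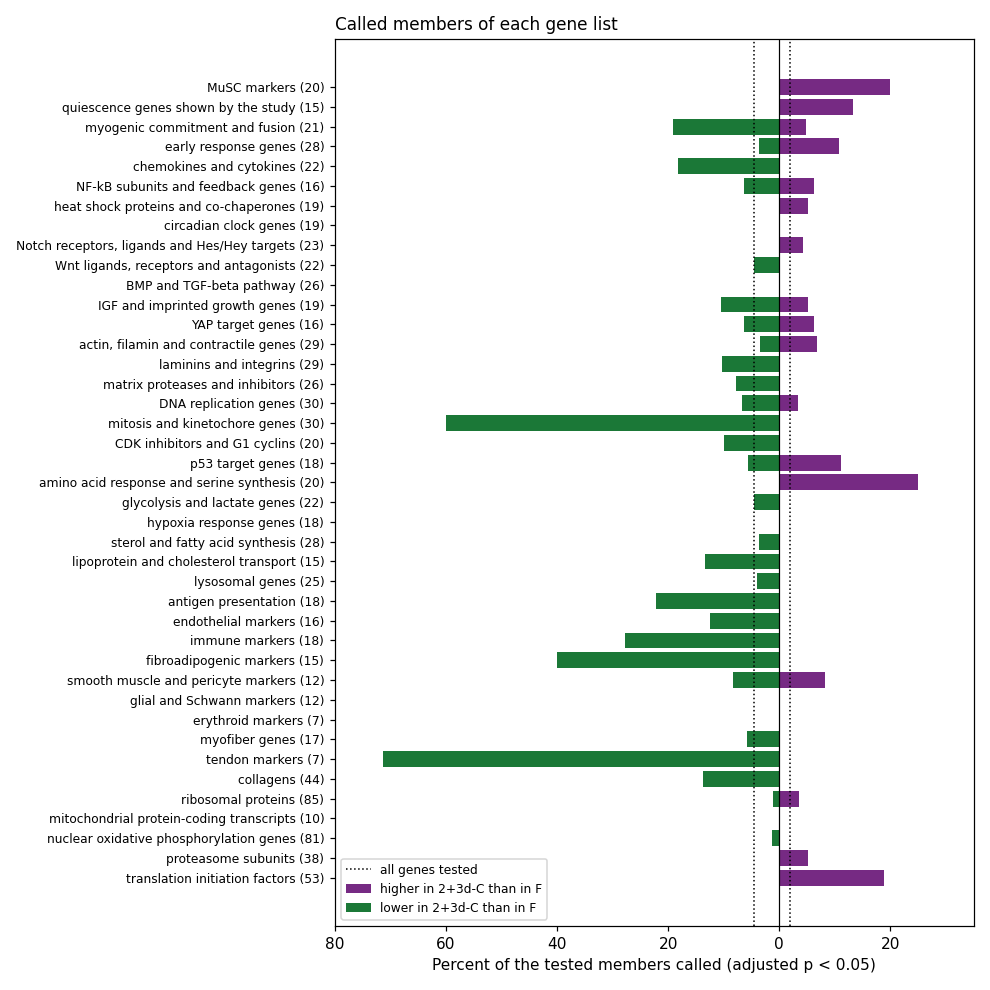
Percent of the tested members of each gene list (number tested in parentheses) called higher (bars to the right) or lower (bars to the left) in 2+3d-C than in F at an adjusted p-value under 0.05 (edgeR). Dotted lines mark the percents over all genes tested, 1.94 higher and 4.47 lower, and the mitosis list reaches 18 of 30 lower.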

How the data were processed

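The authors aligned single-end SMART-Seq v4 reads to mm10 with the nf-core RNA-seq pipeline and deposited raw counts per gene (featureCounts 1.6.4, GENCODE vM23, no strand), 3 libraries per group. Amplification by PCR without molecular identifiers means that limits of detection (3 reads per library, averaged as CPM over the group) cover counting error only. All 12 libraries were fitted in 1 model with edgeR 4.0.16 (R 4.3.3), with filterByExpr, TMM scaling and the quasi-likelihood test, two-sided. The study used DESeq2, which was run as an alternative (version 1.42.0), as were library sizes without TMM, no filter, a replicate block, the 6 libraries alone, sizes without mitochondrial genes, a mean of at least 5 CPM, silent-family reads subtracted or given a model term (over 0.5 reads per kb), a fold of at least 2 and each library left out. With 3 against 3, an exact permutation test cannot go below p = 0.1, so single values were not tested. Tested on simulated data with these 22635 genes, the fit called 0 of 50 genes changed 2-fold, 9 of 50 changed 4-fold, 28 of 50 changed 8-fold and 43 of 50 changed 16-fold in 2+3d-C against F. It also called 4 unchanged genes. The changed genes had a mean of at least 10 CPM, so the numbers do not cover genes of lower level. No silent-family reads were added to single simulated libraries. Fold changes are 2+3d-C over F. The comparison and the gene lists were chosen with earlier results of these data known. Genes named were taken from the 12 largest rises and falls (at least 10 CPM in the higher group, no overlap of libraries, no pseudogenes or symbols of the Gm and Rik kinds), from every list 3 called members of highest mean CPM and 3 members of smallest p-value, all MuSC markers and Myod1, Myf5, Myf6 and Myog, with others where marked, and members that the rule picks but that did not pass are not all named. Where members of a list are named beyond these, they complete a count of calls, and 1 called gene is not reported here by name. Promoters come from the RefSeq table of GRCm38.p6. Figures were drawn with matplotlib.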

Additional observations from a re-analysis of the deposited data

How the results depend on the processing

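The number of genes called in 2+3d-C against F depended on the fit. Genes higher in 2+3d-C, 438 as reported, were 145 without TMM, 177 with the 6 libraries alone, 269 with a mean of at least 5 CPM, 23 with a model term for the libraries with silent-family reads, 887 with DESeq2, and 26 to 1185 with 1 library left out. Genes lower, 1011 as reported, were 2240 without a filter, 509 with a mean of at least 5 CPM, 182 with the model term, 4428 with DESeq2 and 222 to 8878 with 1 library left out. Without F replicates 4 and 5, an alternative chosen after seeing the data that assumes the lone F library varies like the other groups, edgeR gave 0 higher and 78 lower (783 and 1902 at an unadjusted p under 0.05), and Mmp13 had a log2 fold change of 1.71 (adjusted p = 0.962), the opposite sign. DESeq2 was not run without these libraries. With a replicate block the numbers were 270 and 1690. F and 2+3d-C share the numbers 4 and 5. Deviations of same-numbered libraries from their group means correlated at -0.0254 and -0.413, and those of differently numbered ones at 0.0875 and 0.378. Deviations within a group of 3 libraries depend on each other. These values therefore cannot show whether same-numbered libraries share mice or a sort. The study states that each sorted batch was spread at random over the conditions. The other settings left both counts within 1.5 times. The cause of these differences was not tested. Depth limits the compressed group at replicate 5, with 12540745 reads, and low genes there are bounds rather than folds.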
